A study of Mus musculus with 8 samples.

Results

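Immediate early genes are the genes a neuron transcribes within minutes of synaptic activity, growth factors or stress, without first making new protein. Calcium entry and kinase cascades act on factors already bound at their promoters, among them CREB at cyclic AMP response elements (CRE) and SRF at CArG boxes. Many of the products are themselves transcription factors that act on a later set of genes, and others, such as Arc, act at the synapse or shut the signal off. A list of 34 such genes was followed: the AP-1, EGR and KLF factors, other nuclear regulators, synaptic effectors and feedback genes. Members were found by matching the accession of each array probe to RefSeq symbols. Of the 34 genes, 33 were measured well enough to be tested, among 21113 genes or unnamed transcripts (features) in all, and Egr3 was not.

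RNA came from dissociated mouse hippocampal neurons grown for 10 days, given a lentivirus, and kept for a further 6 days. In 4 samples the virus carried Flag-tagged Nr4a1, an orphan nuclear receptor that is itself induced by activity, and in 4 it carried GFP. Both groups were therefore infected, neither was described as stimulated or silenced, and the sources used here do not name the promoter that drives the transgene. Each array carried culture RNA in Cy5 and Universal Mouse Reference RNA in Cy3, with no dye swap, and the labels join 1 array of each transgene into a pair. The labels do not say whether replicates came from separate cultures or animals, so p-values reflect only how far these 8 samples scatter, part of which may be technical.

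Levels below are log2 ratios of culture RNA over reference RNA, comparable between arrays but not between genes. Differences are Nr4a1-labelled minus GFP-labelled, on the log2 scale, with limma standard errors (SE, n = 4 pairs). Each SE is moderated, that is, limma draws the variance of a gene toward that of all features. For genes whose pairs differ widely this makes the SE smaller than their own 4 pairs would give. A gene was called at an adjusted p under 0.05 over all 21113 features. The words "Nr4a1-labelled" and "GFP-labelled" are used because the probe for the delivered gene did not separate the groups. In replicates 1 to 4 it read -2.06, -2.12, -1.90 and -2.49 under the GFP label and -1.32, -2.49, -1.20 and -2.37 under the Nr4a1 label. The files do not say whether this probe lies within the delivered sequence.

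Arc, Egr2, Egr1, Egr4, Fosb, Fosl2, Atf3, Gadd45b, Gadd45g, Dusp1, Klf2 and Plk2 were higher on Nr4a1-labelled arrays, and Jun and Klf6 were lower. These were 12 of 33 members called higher, against 12.8% of all features, and 2 called lower, against 11.5%. The median difference of the members was 0.36, and that of all features was near 0 (-0.0034). The rise was uneven over the pairs. At least 2-fold higher were 14 members in replicate 1 (0.829% of all features) and 13 in replicate 3 (0.578%), but 0 in replicate 2 (0.617%) and 0 in replicate 4 (0.644%). In both replicates 1 and 3 the mark was reached by 12 members (0.464% of all features). At least 2-fold lower were 0 members in any pair, against 0.332% to 0.337% of all features. The member medians in replicates 1 to 4 were 0.72, -0.03, 0.70 and 0.05, while those of all features lay between -0.02 and 0.01.

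**Figure D1:**
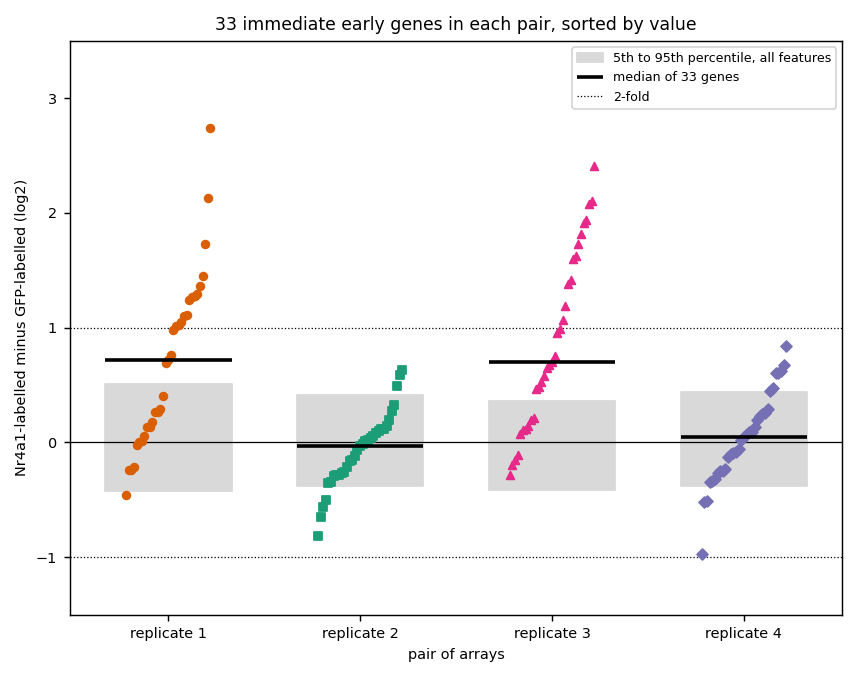
Nr4a1-labelled minus GFP-labelled difference (log2, vertical axis) of 33 immediate early genes in each of the 4 pairs of arrays, sorted by value within a pair. Each point is 1 gene, the black bar is their median and the grey box spans the 5th to 95th percentile of all features in that pair; medians are 0.72 and 0.70 in replicates 1 and 3 but -0.03 and 0.05 in replicates 2 and 4.

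The count of members called higher moved with the arrays and the fit used. It was 4 without replicate 1, 19 without replicate 2, 6 without replicate 3 and 10 without replicate 4, that is, within batch 1, since replicate 4 is the whole of batch 2. All features called higher numbered 1770, 1921, 2592 and 1992 in these fits, against 2711 in the main fit. Only Klf6 was called lower without replicate 4, against 1888 of all features. The count of members called higher was 6 without the pair block and 7 with the batch label in place of the pair. It was 0 with the 3 slides as a random block. Each slide held arrays of 1 label, so slide and transgene cannot be told apart. The member count was also 0 with the spots of non-uniform local background kept on all arrays. There were 37 such spots on Nr4a1-labelled replicate 2, 1 to 9 on each GFP-labelled array and 0 on the other Nr4a1-labelled arrays. All features called higher fell as well, to 8 with the slide block and 130 with all spots kept. They numbered 2350 without the pair block and 2992 with the batch label. With median centring in place of loess 22 members were called higher and 1 lower, and the split of all features moved from 2711 higher and 2434 lower to 3462 and 1262. Leaving out replicates 1 and 3 together was an alternative chosen after seeing the data. There 3 members were called higher (Fosl2, Gadd45g and Plk2) and 7 lower (Jun, Jund, Klf6, Npas4, Rgs2, Nfil3 and Ier5). Of all 21113 features, 1641 were then called higher and 1299 lower.

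Promoter sequence is shown here for the members that carry a full CRE, because they differed widely in behaviour. RefSeq promoter windows (250 bases before to 50 after each start, build GRCm38.p6) were matched for 27 of the members. Arc, Crem, Egr1, Egr3, Ier2, Sik1 and Trib1 were not searched, so the motif counts say nothing of them. The full CRE (TGACGTCA, searched on both strands) stood at 5 of these 27, Arl4d, Btg2, Dusp1, Maff and Plk2, that is, in 5 of their 36 windows, since some genes have several starts, and in 1.79% of all 32851 windows. Its half-site (TGACG, both strands, contained in every full CRE) stood at 19 of 27, in 25 of their 36 windows, and in 20.8% of all windows. Fos has no full CRE in this window but 2 half-sites, 129 and 66 bases before the start. In the stretches below, 5′ to 3′ on the gene's strand, capitals mark the full CRE, or the half-sites in Fos. They lie at chr12:85473720-85473869 (Fos, plus strand), chr15:79347480-79347509 (Maff, plus), chr13:110394956-110395015 (Plk2, plus), chr17:26508582-26508641 (Dusp1, minus), chr11:101665481-101665540 (Arl4d, plus) and chr1:134079288-134079347 (Btg2, minus), all upstream of the start.
Fos: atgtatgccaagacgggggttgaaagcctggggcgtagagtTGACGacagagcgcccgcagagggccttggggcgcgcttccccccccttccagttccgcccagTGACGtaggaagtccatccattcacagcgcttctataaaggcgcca
Maff: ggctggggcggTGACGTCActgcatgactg
Plk2: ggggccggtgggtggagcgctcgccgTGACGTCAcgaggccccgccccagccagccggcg
Dusp1: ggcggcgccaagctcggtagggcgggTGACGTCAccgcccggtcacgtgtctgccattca
Arl4d: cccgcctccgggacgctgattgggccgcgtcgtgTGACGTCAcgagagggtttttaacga
Btg2: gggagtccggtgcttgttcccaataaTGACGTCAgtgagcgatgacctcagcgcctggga

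Of these 5 CRE genes, Plk2 was higher in all 4 pairs, Maff and Arl4d were higher in replicates 1 and 3 and lower in replicates 2 and 4, Dusp1 was higher in all 4 pairs by 0.04 to 0.75, and Btg2 lay between -0.16 and 0.22. A CArG box stood in 1.63% of all windows and in 4 of the members' 36, all of Egr2. The AP-1 site TGANTCA stood in 7.81% of all windows and in 1 of the 36, that of Csrnp1. The NR4A monomer element NBRE (AAAGGTCA) stood in 1.51% of all windows and in 0 of the 36. A match is a description of the letters and not of binding, and a window without one says nothing of the factor.

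The AP-1 subunits, whose Fos-family and Jun-family products pair to bind DNA, had 2 of 6 members called higher (Fosb and Fosl2) and 1 lower (Jun). In replicates 1 to 4, Fos read -2.54, -2.65, -1.92 and -2.74 under the GFP label and -0.81, -2.93, 0.02 and -2.66 under the Nr4a1 label. Nr4a1-labelled replicates 1 and 3 stood above all other arrays, and replicates 2 and 4 lay within or below the GFP-labelled range. Its pair differences of 1.73, -0.29, 1.94 and 0.09 averaged 0.87 ± 0.32, which was not called (adjusted p = 0.0743) but was called without replicate 2 (1.25, adjusted p = 0.00341). Fosb, whose long-lived splice product accumulates with repeated activity, read -1.77, -1.74, -1.60 and -1.66 on GFP-labelled arrays and -0.53, -1.68, 0.31 and -1.61 on Nr4a1-labelled arrays. It was called at 0.82 ± 0.26 (adjusted p = 0.0459), with replicates 2 and 4 at 0.06 and 0.05, and the call was lost without replicate 1 or replicate 3.

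Fosl2, which encodes Fra-2, was higher in every pair, by 1.27, 0.32, 1.06 and 0.48. Its levels were -1.58, -1.56, -1.24 and -1.76 on GFP-labelled arrays and -0.31, -1.24, -0.17 and -1.28 on Nr4a1-labelled arrays, the groups overlapping only at GFP-labelled replicate 3. The difference was 0.78 ± 0.14, a 1.72-fold rise (adjusted p = 0.00272), and was called whichever replicate was left out. A second Fosl2 probe, dimmer and well above background on 7 of 8 arrays, differed by only 0.11.

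Jun fell. It read -0.26, -0.11, -0.26 and -0.27 on GFP-labelled arrays and -0.47, -0.92, -0.37 and -1.24 on Nr4a1-labelled arrays, with no overlap. Here replicates 2 and 4 carried most of the change, at -0.81 and -0.98 against -0.21 and -0.11 in replicates 1 and 3. The difference was -0.53 ± 0.13, 1.44-fold lower (adjusted p = 0.0163), and the call was lost without replicate 4. Jund, a Jun-family gene that responds less to stimulation, gave pair differences of 0.01, -0.35, -0.15 and -0.51 (-0.25 ± 0.08, adjusted p = 0.0526), and was called without replicate 1 (-0.34, adjusted p = 0.0271). Junb gave 0.01, 0.59, 0.53 and -0.25 and was not called (0.22 ± 0.12, adjusted p = 0.234).

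The 3 EGR factors tested, zinc finger proteins used as markers of active neurons, were all called higher. Egr2 read -1.40, -1.76, -0.49 and -1.84 on GFP-labelled arrays and 1.33, -1.66, 1.61 and -1.24 on Nr4a1-labelled arrays. Replicates 1 and 3 of the Nr4a1 label were far above the rest, and the SD of its 4 pair differences (1.24) was the largest of all features. Its difference was 1.39 ± 0.35, or 2.61-fold (adjusted p = 0.0166), and was lost without replicate 1 or replicate 3. Egr1 (Zif268) read -2.01, -2.22, -1.71 and -2.77 on GFP-labelled arrays and -0.74, -2.44, -0.76 and -2.16 on Nr4a1-labelled arrays, lower in the pair of replicate 2. At 0.65 ± 0.19 (adjusted p = 0.0286) it was called, but not without replicate 1, replicate 3 or replicate 4.

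Egr4 behaved differently, with pair differences of 0.98, 0.08, 0.48 and 0.84, the second highest in replicate 4. Its levels were 6.61, 6.47, 6.85 and 6.30 on GFP-labelled arrays and 7.59, 6.56, 7.34 and 7.13 on Nr4a1-labelled arrays, with only Nr4a1-labelled replicate 2 inside the GFP-labelled range. The difference of 0.60 ± 0.12 (adjusted p = 0.00658) was called whichever replicate was left out. It depended on the processing, however. With a background-correction offset of 0 in place of 50 it was 0.02 and not called (adjusted p = 0.926). It turned to -0.45 in Agilent's own ratio and to -0.05 with all spots kept. The Egr3 probe passed the scanner's background test on Nr4a1-labelled replicates 1 and 3 and on 0 of the other 6 arrays. Its corrected Cy5 intensity there was 96.3 and 118. It was 79.3 and 81.5 on Nr4a1-labelled replicates 2 and 4 and 75.0 to 90.6 on GFP-labelled arrays. As log2 ratios Egr3 read 0.42, -0.04, -0.05 and 0.10 under the GFP label and 0.39, 0.09, 0.48 and 0.16 under the Nr4a1 label. By ratio, GFP-labelled replicate 1 was thus above Nr4a1-labelled replicate 1.

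**Figure D2:**
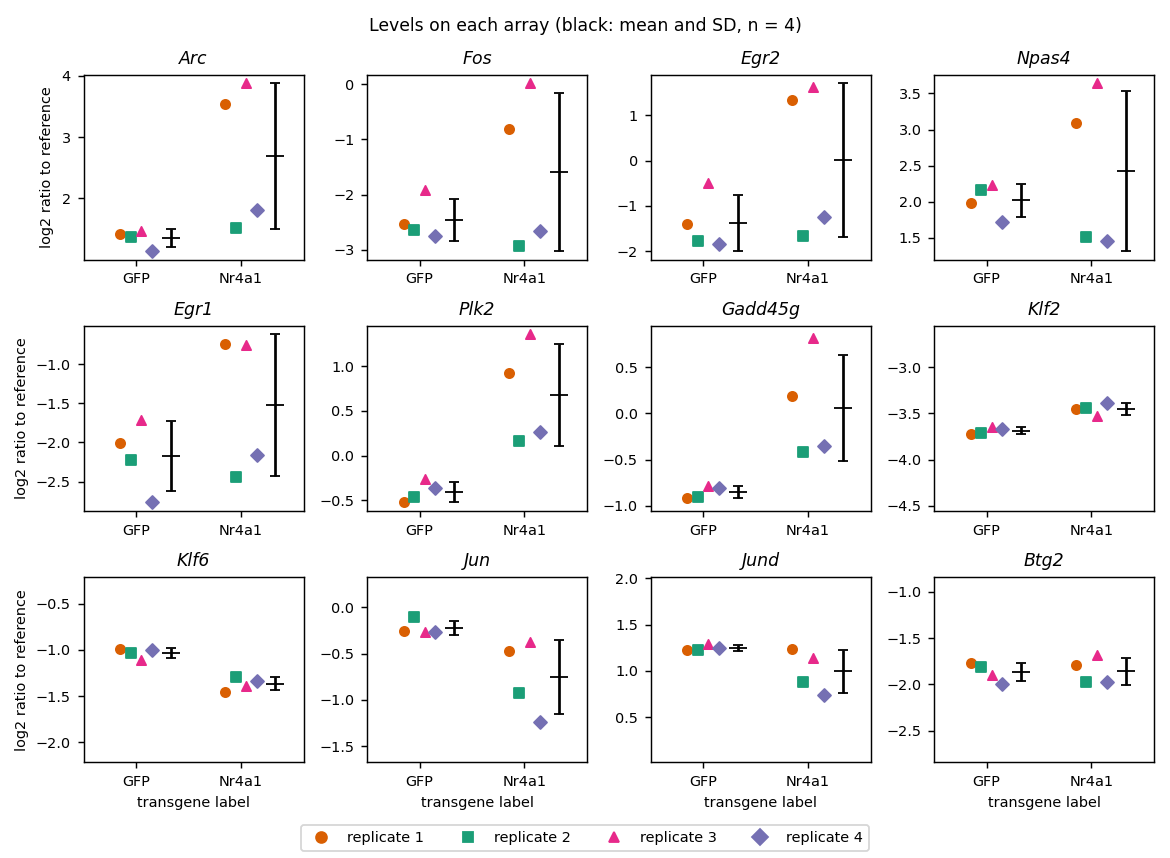
Level of 12 immediate early genes on each of the 8 arrays (log2 ratio to the reference RNA, vertical axis, drawn on a scale of its own for each gene). Points are single arrays by label and replicate, and the black marks are the group mean and SD (n = 4); Nr4a1-labelled replicates 1 and 3 lie apart from the other arrays for Arc, Fos, Egr2 and Npas4, while Klf2 and Klf6 differ by 0.11 to 0.46 in size in every pair.

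Among the other activity-induced bZIP and bHLH-PAS factors, Atf3, a stress-induced member of the ATF family, was the one called. It was tight on GFP-labelled arrays, at -1.62, -1.66, -1.62 and -1.58, and read -0.26, -1.54, 0.45 and -1.44 on Nr4a1-labelled arrays. The groups did not overlap, yet replicates 2 and 4 differed by only 0.11 and 0.14. The difference was 0.92 ± 0.27 (adjusted p = 0.0337), and the call was lost without replicate 1 or replicate 3.

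Npas4 is the factor of this list most selective for calcium entry in neurons. Its levels were 1.98, 2.17, 2.23 and 1.72 on GFP-labelled arrays and 3.09, 1.51, 3.65 and 1.46 on Nr4a1-labelled arrays. Nr4a1-labelled replicates 1 and 3 were above every GFP-labelled array, and replicates 2 and 4 were below every one. The pair differences of 1.11, -0.65, 1.42 and -0.25 gave 0.41 ± 0.28, not called (adjusted p = 0.339). Maff, a small MAF protein, had the same shape at 1.05, -0.28, 0.99 and -0.09 (adjusted p = 0.163). Crem and Nfil3, both bZIP factors, had pair differences between -0.52 and 0.19 and were not called (adjusted p = 0.741 and 0.330).

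The KLF factors, zinc finger proteins of the Krüppel-like family, moved little and evenly. Klf2 read -3.72, -3.72, -3.64 and -3.67 on GFP-labelled arrays and -3.46, -3.45, -3.53 and -3.39 on Nr4a1-labelled arrays. The groups did not overlap and the difference was 0.23 ± 0.06 (adjusted p = 0.0190), lost without replicate 1, replicate 2 or replicate 4. Klf6 was lower in every pair, by -0.46, -0.26, -0.28 and -0.34. It read -0.99, -1.03, -1.11 and -0.998 on GFP-labelled arrays and -1.45, -1.29, -1.39 and -1.34 on Nr4a1-labelled arrays, with no overlap. This made Klf6 1.26-fold lower (-0.34 ± 0.06, adjusted p = 0.00326), called whichever replicate was left out. Klf4, well above background on 3 of 4 arrays in each group, differed by 0.14 ± 0.06 and was not called (adjusted p = 0.113).

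Arc, whose product is needed for AMPA receptor endocytosis and synaptic scaling, read 1.42, 1.37, 1.47 and 1.14 on GFP-labelled arrays and 3.55, 1.52, 3.88 and 1.82 on Nr4a1-labelled arrays. Every Nr4a1-labelled array was above every GFP-labelled array, but the pair differences ranged from 0.14 in replicate 2 to 2.41 in replicate 3. The difference was 1.34 ± 0.31, or 2.53-fold (adjusted p = 0.0113), lost without replicate 1. Plk2 encodes a polo-like kinase that acts in homeostatic weakening of synapses. Its levels were -0.53, -0.47, -0.27 and -0.36 on GFP-labelled arrays and 0.92, 0.16, 1.36 and 0.26 on Nr4a1-labelled arrays. Plk2 rose in all 4 pairs, by 1.45, 0.63, 1.62 and 0.62, with no overlap, giving 1.08 ± 0.16 or 2.12-fold (adjusted p = 0.000895), the smallest p of the members. The call held whichever replicate was left out.

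Ptgs2 and Arl4d, the remaining effectors, were high in replicates 1 and 3 and not called. Ptgs2, the inducible cyclo-oxygenase COX-2, gave pair differences of 1.02, -0.12, 1.81 and 0.26 (0.74 ± 0.24, adjusted p = 0.0501). It was well above background on 3 of 4 arrays in each group. Arl4d, a small GTPase of the ARF-like family, gave 1.295, -0.16, 1.19 and -0.10 (0.56 ± 0.23, adjusted p = 0.104), and a second probe gave 1.32, -0.14, 1.195 and 0.0034.

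Of the 6 feedback and stress genes, 3 were called. Gadd45g, of a family tied to stress signalling and DNA demethylation, read -0.91, -0.90, -0.78 and -0.81 on GFP-labelled arrays and 0.19, -0.41, 0.81 and -0.36 on Nr4a1-labelled arrays. It rose in every pair without overlap, by 1.11, 0.49, 1.59 and 0.45 (0.91 ± 0.16, adjusted p = 0.00286), and was called whichever replicate was left out. Its relative Gadd45b read -1.63, -1.70, -1.60 and -1.63 on GFP-labelled arrays and -0.61, -1.69, 0.13 and -1.53 on Nr4a1-labelled arrays. There the difference rested on replicates 1 and 3, with 0.01 and 0.09 in replicates 2 and 4 (0.71 ± 0.23, adjusted p = 0.0496), and was lost without either of them.

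Dusp1, a phosphatase that switches off MAP kinases, read -2.17, -2.18, -2.14 and -2.20 on GFP-labelled arrays and -1.76, -2.15, -1.39 and -1.97 on Nr4a1-labelled arrays. It was called at 0.36 ± 0.10 (adjusted p = 0.0270), but not without replicate 1, replicate 3 or replicate 4. Rgs2, which limits G protein signalling, gave 0.27, -0.57, 0.70 and -0.32, close to 0 on average (0.02 ± 0.17, adjusted p = 0.941). The Rgs2 probes disagreed in replicate 3, where the other one gave -0.18. Sik1, a kinase that restrains CREB coactivators, gave 0.72, -0.27, 0.67 and -0.10 (adjusted p = 0.253). Trib1, a pseudokinase, gave 0.29, -0.01, 0.46 and 0.19 (adjusted p = 0.0547), a mean of 0.23 against 0.02 for its other probe.

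None of the 5 remaining nuclear regulators (Csrnp1, Tiparp, Btg2, Ier2 and Ier5) was called, their differences lying between -0.07 and 0.46. Csrnp1 gave 0.69, -0.30, 1.38 and 0.07, and Tiparp, a mono-ADP-ribosyltransferase, 0.76, 0.02, 0.65 and -0.23. The other probe of Tiparp gave -0.07, 0.11, 0.43 and -0.28. Btg2, an antiproliferative gene, was flat, at -1.77 to -1.99 on GFP-labelled arrays and -1.68 to -1.98 on Nr4a1-labelled arrays. Ccn1 (Cyr61), a secreted matrix protein, was slightly lower in every pair without overlap (-0.14 ± 0.06, adjusted p = 0.122, not called). In all, 5 members had Nr4a1-labelled levels wholly above the GFP-labelled ones (12.7% of all features) and 3 wholly below (11.7%). All 4 pairs were higher for 12 members (21.3%) and lower for 3 (21.3%).

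**Figure D3:**
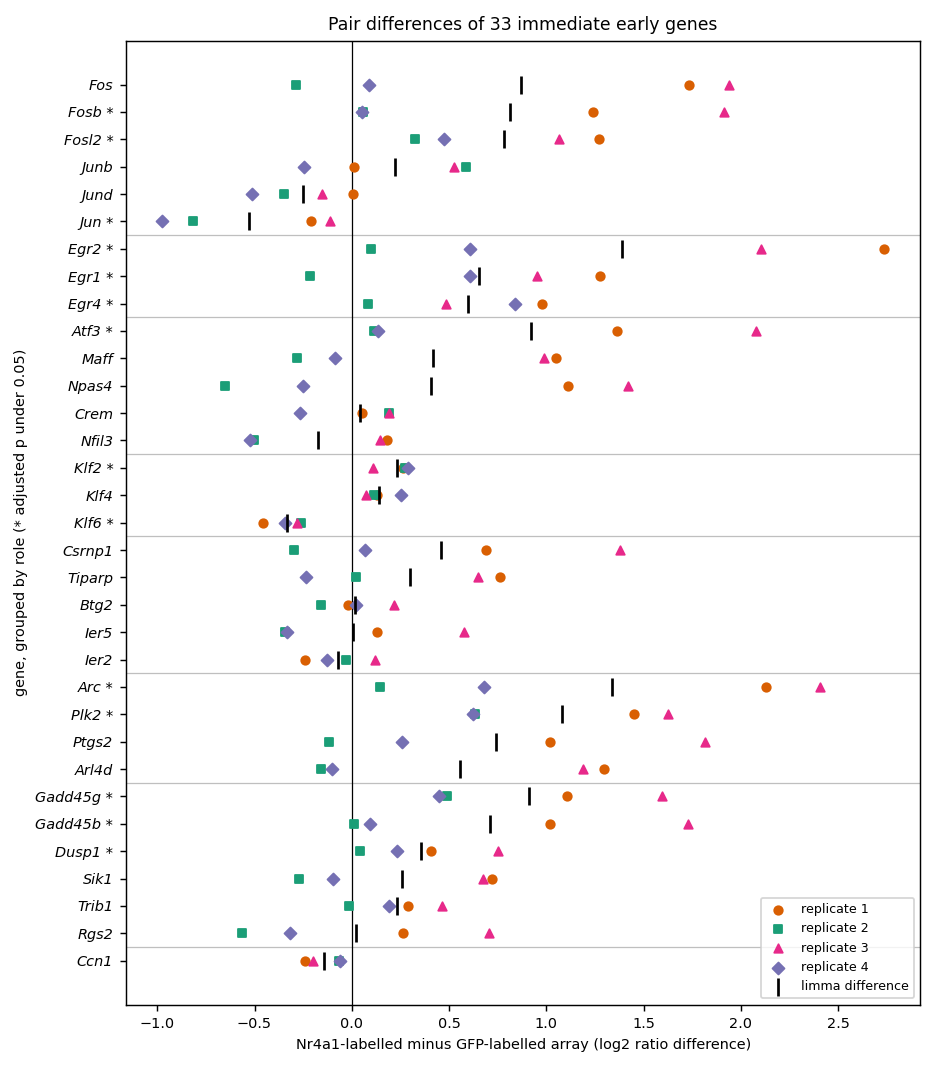
Nr4a1-labelled minus GFP-labelled difference (log2, horizontal axis) of 33 immediate early genes in each of 4 pairs (symbols), with the limma difference as a black tick. Genes are grouped by role and an asterisk marks those called; the symbols of replicates 1 and 3 reach 2.74 for Egr2 and 2.41 for Arc, while those of replicates 2 and 4 stay between -0.98 for Jun and 0.84 for Egr4.

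The spread between pairs was wide in these genes. The SD of the 4 pair differences had a median of 0.48 among the members and 0.12 among all features. It was above the 95th percentile of all features (0.277) for 24 of 33 members, where 5% of features lie by definition. Egr2, Fos, Arc and Npas4 had the 4 largest SDs of all 21113 features, followed at rank 5 by Nr4a2, which is no member, and at ranks 6 and 8 by Atf3 and Fosb. The spread lay mainly on one side. Among Nr4a1-labelled arrays the median SD of the members was 0.538 (all features 0.0988), and among GFP-labelled arrays it was 0.114 (all features 0.0931). On Nr4a1-labelled arrays 25 members exceeded the 95th percentile of all features, and on GFP-labelled arrays 7 did, namely Egr1, Egr2, Egr4, Fos, Fosl2, Npas4 and Csrnp1. These are descriptions, since the list was chosen with this pattern known.

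Replicate 3 was the highest array under both labels for most members, though not for all. The highest of the Nr4a1-labelled arrays was replicate 3 for 26 of 33 members (20.1% of all features), and the highest of the GFP-labelled arrays was replicate 3 for 22 of 33 (27.4%). The differences of the 33 members in replicate 1 correlated across genes with those in replicate 3 at r = 0.89, where all features gave 0.67. Replicate 2 correlated with replicate 1 at 0.25 and with replicate 3 at 0.25 over the members, against 0.72 and 0.71 over all features. With replicate 4, replicates 1, 2 and 3 gave 0.64, 0.63 and 0.53 over the members, against 0.70, 0.73 and 0.62 over all features. Genes are not independent replicates, the pairs share no array, and the arrays of each label share slides.

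A rule written after the values were seen picked features at least 2-fold higher in replicates 1 and 3 and within 0.5 of 0 in replicates 2 and 4. It found 14 features (0.0663% of all), and 8 of them were members: Arl4d, Atf3, Fos, Fosb, Fosl2, Gadd45b, Gadd45g and Ptgs2. The others were Bcor, Errfi1, Itprip, Nr4a2, Sertad1 and 1 unnamed transcript. Just outside it, Maff stood at 0.99 in replicate 3, and Plk2, Arc, Egr2 and Npas4 lay beyond 0.5 in replicate 2 or replicate 4. In 7 members the pair was higher in replicates 1 and 3 and lower in both replicates 2 and 4 (2.88% of all features): Npas4, Maff, Nfil3, Ier5, Rgs2, Sik1 and Arl4d. The opposite order held for 0 members (3.43% of all features).

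**Figure D4:**
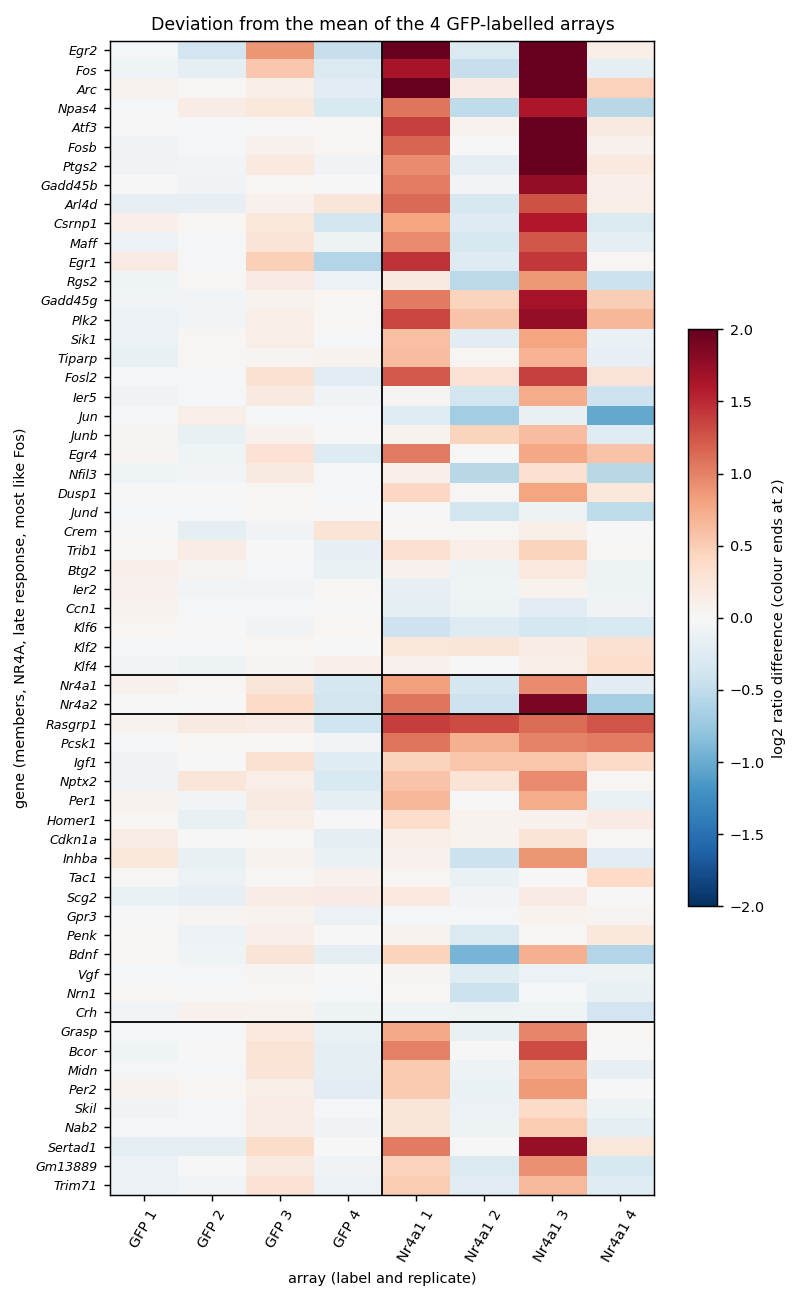
Deviation of each array from the mean of the 4 GFP-labelled arrays (log2, colour, ending at 2 in both directions) for 33 immediate early genes sorted by the spread of their pair differences, 2 NR4A genes, 16 late response genes and 9 genes most like Fos. Columns are arrays by label and replicate; the top members are red on Nr4a1-labelled replicates 1 and 3 and pale or blue on replicates 2 and 4, whereas Rasgrp1 and Pcsk1 are red on all 4 Nr4a1-labelled arrays.

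Covariation with Fos rested on the same arrays. On Fos the 8 arrays fell into a set of 2, Nr4a1-labelled replicates 1 and 3, and a set of 6, so no pooled correlation of members is given. Over the other 6 arrays, 32 members were each correlated with Fos by an exact two-sided permutation test. None passed at an adjusted p of 0.05 by Pearson's r (0 of 32, 3 at an unadjusted p under 0.05) or Spearman's rho (0 of 32, 2 at an unadjusted p under 0.05). The largest r were those of Maff (0.95, rho 0.71, exact p = 0.0167) and Egr2 (0.90, rho 0.60, exact p = 0.0417), both at an adjusted p of 0.239. Across the 32 members r was above 0 for 24 and below 0 for 8, with a median of 0.34. The smallest exact p that 6 arrays allow is 0.00139 for r and 0.00278 for rho, so that by rho no single member could have passed after adjustment over 32.

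The 10 named genes outside the list whose levels were most like Fos over the 8 arrays were ranked by Pearson's r, a measure of likeness with no test that rests on Nr4a1-labelled replicates 1 and 3. They were Grasp (0.99), Bcor (0.98), Midn (0.98), Per2 (0.98), Skil (0.97), Nr4a2 (0.97), Nab2 (0.97), Sertad1 (0.97), Gm13889 (0.97) and Trim71 (0.96). Nab2 encodes a corepressor that binds EGR proteins, and Per2 is a circadian clock gene. Bcor (0.58 ± 0.17, adjusted p = 0.0312) and Sertad1 (0.75 ± 0.19, adjusted p = 0.0166) were called higher, and both calls were lost without replicate 1 or replicate 3. The other 8 were not called.

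The NR4A genes are immediate early genes too. Nr4a1, with the probe values given above, differed by 0.30 ± 0.15 (adjusted p = 0.196). Nr4a2 read 0.32, 0.33, 0.72 and -0.03 on GFP-labelled arrays and 1.402, -0.08, 2.22 and -0.33 on Nr4a1-labelled arrays (0.47 ± 0.27, adjusted p = 0.251), above all GFP-labelled arrays in replicates 1 and 3 and below all of them in replicates 2 and 4. Nr4a3 was well above background on 0 of 8 arrays.

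Late response genes follow the first wave, and many encode secreted or synaptic proteins. The list used here also holds other activity-induced genes, among them Per1 and Cdkn1a. Of its 16 genes, 5 were called higher and 0 lower (12.8% and 11.5% of all features). The median difference of the list was 0.08. Rasgrp1, a Ras activator, rose in every pair by 1.31, 1.12, 0.96 and 1.66 (1.26 ± 0.10, adjusted p = 2.07e-05). Pcsk1, a prohormone convertase, rose by 1.098, 0.67, 0.97 and 1.09 (0.96 ± 0.08, adjusted p = 2.56e-05), and Igf1 by 0.51, 0.54, 0.26 and 0.63 (0.48 ± 0.07, adjusted p = 0.000903). These 3 calls held whichever replicate was left out. Nptx2, a pentraxin that clusters AMPA receptors, was higher by 0.63, 0.03, 0.81 and 0.34 (0.45 ± 0.11, adjusted p = 0.0142). The clock gene Per1 was higher by 0.59, 0.05, 0.56 and 0.06 (0.32 ± 0.10, adjusted p = 0.0428). Both of these calls were lost without replicate 1, leaving 3 late genes called, and without replicate 3.

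Bdnf, the neurotrophin gene induced by calcium, followed the Npas4 order. It read 1.68, 1.57, 1.91 and 1.48 on GFP-labelled arrays and 2.11, 0.74, 2.36 and 1.08 on Nr4a1-labelled arrays. Nr4a1-labelled replicates 1 and 3 were above all GFP-labelled arrays and replicates 2 and 4 below all of them. Its pair differences of 0.43, -0.83, 0.45 and -0.40 averaged -0.09 ± 0.18 (adjusted p = 0.773). Of the other late genes, Vgf, Scg2, Tac1, Penk and Gpr3 each differed by at most 0.10 in size and were not called. Homer1 (0.17), Cdkn1a (0.12), Nrn1 (-0.15), Crh (-0.16) and Inhba (0.08) were not called either. Inhba was uneven, with pair differences of -0.12, -0.28, 0.80 and -0.08 in replicates 1 to 4.

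Of 30 genes for the receptors, kinases, coactivators and factors that induce this programme, 29 were tested (not Cacna1c), 5 were called higher and 5 lower (12.8% and 11.5% of all features), with a median of 0.01. The ERK-activated kinase gene Rps6ka3 (RSK2) was higher by 0.55 ± 0.06 (adjusted p = 0.00017), in every pair, and the SRF coactivator Mrtfb by 0.34 ± 0.08 (adjusted p = 0.0137). Creb1 itself was higher by 0.31 ± 0.08 (adjusted p = 0.0162), the CREB coactivator Crtc2 by 0.27 ± 0.06 (adjusted p = 0.00854), and the calcineurin subunit Ppp3ca by 0.27 ± 0.09 (adjusted p = 0.0451). Lower were the calcium/calmodulin kinase kinase Camkk2 (-0.52 ± 0.07, adjusted p = 0.000388) and its target Camk4 (-0.25 ± 0.08, adjusted p = 0.0423). The class IIa deacetylase Hdac5 (-0.31 ± 0.06, adjusted p = 0.00555), Crtc3 (-0.22 ± 0.06, adjusted p = 0.0222) and Mef2c (-0.21 ± 0.06, adjusted p = 0.0314) were lower too. Without replicate 1 these calls fell to 2 higher (Crtc2 and Rps6ka3) and 2 lower (Camkk2 and Hdac5). Calls among all features fell there too, to 1770 higher and 1618 lower. Without replicate 2 Camkk2 and Hdac5 were again the lower calls, and without replicate 4 the higher calls were 3 (Creb1, Crtc2 and Rps6ka3). Srf, Elk1 and Grin1 were not called (differences of 0.12, 0.12 and -0.02).

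The average of each marker list for the cells in the dish differed by less than 0.15 between Nr4a1-labelled replicates. Beside the counts of markers called below, 12.8% of all features were called higher and 11.5% lower. The 11 neuronal markers averaged 4.45, 4.39, 4.45 and 4.54 on Nr4a1-labelled replicates 1 to 4 and 4.41 to 4.54 on GFP-labelled arrays (1 of 11 higher, 1 lower). The 5 hippocampal excitatory markers averaged 2.67 to 2.81 on Nr4a1-labelled arrays and 2.58 to 2.90 on GFP-labelled arrays (1 higher, 1 lower). The 10 astrocyte markers averaged 3.87 to 4.01 and 3.77 to 3.89 (3 higher, 0 lower). The 9 oligodendrocyte lineage markers averaged 1.396, 1.41, 1.41 and 1.34 on Nr4a1-labelled replicates 1 to 4 and 1.02 to 1.21 on GFP-labelled arrays (5 higher, 1 lower). Their part in the differences between labels was not tested. Microglial markers (7 of 10 tested, 0 higher, 1 lower) averaged -1.94 to -1.82 and -1.78 to -1.72, and P2ry12 was above background on 0 arrays. Vascular and fibroblast markers (11 of 12 tested, 0 higher, 2 lower) averaged -2.40 to -2.35 and -2.26 to -2.21. In such mixed cultures fewer cells of a type and less RNA per cell cannot be told apart.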

How the data were processed

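Per the file headers, the 8 scanner files come from version 11.0.1.1 of Agilent Feature Extraction. They hold a median signal intensity and a background intensity for each channel, and the software's log10 ratio, all as the authors deposited them. The authors also deposited a value table of log2 ratios for 24275 probes, whose scale, centring and direction are not stated. Its columns correlated at 0.998 to 1.00 with the ratios made here (slopes 0.992 to 1.01, medians 0.0240 to 0.0312), so positive values were taken as higher in the culture than in the reference. Of software, the submitters' processing notes list Agilent Feature Extraction and limma, with no version.

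Background was corrected by normexp with offset 50, which shrinks the folds of dim probes, after spots with a non-uniform local background were left out. Ratios were normalised by loess within arrays, with control spots at weight 0, and outlier spots were left out. A gene needed Cy5 signal well above background on 4 or more of 8 arrays and 3 or more values per group, and its brightest probe was used. RefSeq (GRCm38.p6) named 26581 of 39429 probes. Between 60.9% and 69.2% of spots were well above background in Cy5, 0 were saturated, and the number of arrays limits the precision.

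Differences were tested two-sided with limma 3.58.1 (lmFit, then eBayes, under R 4.3.3), with the pair as a block, and p-values were adjusted by Benjamini-Hochberg over 21113 features. The script was checked on simulated data. The pair tag in the labels is the ground for the block, and deviations from group means correlated within pairs at -0.10, 0.28, -0.016 and 0.42. Slide 1 held the GFP-labelled arrays, slide 2 the first 3 Nr4a1-labelled replicates and slide 3 the last. Members, lists, the left-out spots and the tests were chosen with earlier results of these data known. Genes named are all members, the NR4A genes, the called genes and the 4 of smallest p in the late response and upstream lists, and the 10 genes most like Fos. Others were named after their values were seen. Alternatives covered the block, background, normalisation, filter, probe choice, value source and replicates left out.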

Additional observations from a re-analysis of the deposited data

Results flagged for a closer look

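Within the GFP-labelled arrays 3 members had 1 array far from the other 3, by a test for a single outlier that chance meets in about 1 of 20 groups. Jun was at -0.11 on replicate 2 and at -0.27 to -0.26 on the others. Ptgs2 was at -2.60 on replicate 3 and at -2.86 to -2.85 on the others, and it failed the scanner's background test on replicate 4. Nfil3 was at -0.17 on replicate 3 and at -0.42 to -0.39 on the others. Egr3, which entered no comparison, passed the scanner's background test on 2 arrays, Nr4a1-labelled replicates 1 and 3, and on 0 GFP-labelled arrays. Its log2 ratio in replicate 1 was nonetheless 0.42 under the GFP label and 0.39 under the Nr4a1 label.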

How the results depend on the processing

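Counts are given as members higher/lower, late response genes higher/lower, and upstream genes higher/lower, with main values of 12/2, 5/0 and 5/5, and 24 members with a wide spread of pair differences. The cause of a change was not tested unless named. All features called were 2711/2434 in the main fit, 2350/2126 without the replicate block and 2992/2752 with the batch block. They were 130/98 with all spots kept, 1704/1559 with offset 0, 1512/1350 in Agilent's ratio and 2831/2437 with the trended eBayes. Leaving out 1 replicate at a time gave 1770 to 2592 higher and 1618 to 2002 lower. Leaving out replicates 1 and 3 together gave 1641/1299. Without the replicate block, 6 members and 3 late genes were called higher. With the batch label as the block, 7 members were higher and 1 late gene lower. With slide as a random block (consensus correlation 0.862) every count of calls was 0, and 8 features in all were called higher and 4 lower. With all spots kept, members were 0/0, late genes higher 0, upstream 1/0 and wide members 7. Offset 0 gave members 5/1 and upstream 2/2. No background correction gave late genes 3/1. Median centring gave members 22/1 and 1 upstream gene lower, and it moved the median of all features from near 0 to 0.059, with 3462 features higher and 1262 lower against 2711 and 2434. Agilent's ratio gave members 4/1, late genes higher 2, upstream 2/3 and wide members 12. The authors' table and the Cy5 channel alone each gave 1 late gene lower. A trended, robust eBayes gave 7 members higher, and the calls of Arc, Atf3, Egr1, Egr2, Fosb, Gadd45b and Jun were lost. Leaving out 1 replicate at a time gave members 4 to 19 higher and 1 to 3 lower, late genes 3 to 5 higher, upstream genes 2 to 5 higher and 2 to 4 lower, and wide members 22 to 24. Without replicates 1 and 3 together, members were 3/7, late genes 3/1, upstream 1/2 and wide members 6. The count of 0 correlations past the threshold says nothing of stability, as 6 arrays leave the test little room to pass, and it could not be computed with a replicate left out. Aquantile leaves ratios unchanged by construction. Over the single genes and alternatives, 872 values kept their direction and side of the threshold, 216 lost a call, 49 gained one and 41 changed sign.

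Differences that changed sign were as follows. Crem turned to -0.041 with the slide block, -0.10 with all spots and -0.054 in Agilent's ratio, and ran from -0.0062 to 0.15 with 1 replicate left out. Ier5 turned to -0.086 with the slide block, -0.014 with offset 0, -0.012 with no background correction and -0.041 in Agilent's ratio, and ran from -0.18 to 0.12 with 1 replicate left out. Rgs2 turned to -0.072 with the slide block, -0.073 with all probes averaged and -0.049 in Cy5 alone, and ran from -0.21 to 0.22 with 1 replicate left out. Btg2 ran from -0.053 to 0.072 with 1 replicate left out. Egr4 turned to -0.054 with all spots and -0.45 in Agilent's ratio, and Ier2 to 0.057 with all spots. Trim71 turned to -0.13 with all spots and -0.21 in Agilent's ratio, and Nab2 to -0.012 in Cy5 alone. Without replicates 1 and 3 together the values were Btg2 -0.070, Crem -0.035, Fos -0.099, Ier5 -0.34, Maff -0.18, Npas4 -0.45, Rgs2 -0.44, Sik1 -0.18, Tiparp -0.11, Csrnp1 -0.11, Arl4d -0.13, Nr4a1 -0.12, Nr4a2 -0.36, Midn -0.012, Skil -0.066, Nab2 -0.089, Gm13889 -0.28 and Trim71 -0.14.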
